A study of Homo sapiens with 4 samples.

Results

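The genes described here are 31 genes of cholesterol and fatty acid metabolism, a given list of SREBP pathway regulators, enzymes of the mevalonate and sterol steps, and enzymes that make, modify, activate, oxidize or release fatty acids. They were looked up in FOXK2 ChIP-seq peak lists of OVCAR5, an established ovarian cancer cell line that is labelled high-grade serous and ascites-derived. FOXK2 is a forkhead transcription factor, and the study asked which genes it binds in these cells. The data were 2 biological replicates of the parental cells with no treatment labelled, so a single cell line in a single condition, and the matched input libraries were not analysed here. A gene counted as having a FOXK2 peak when the authors' annotation named it as the gene of the nearest transcription start site (TSS), at any distance, so an assigned peak is a position near a gene and not evidence of regulation. The list of replicate 1 held 12471 peaks of 210 bp (end minus start) and that of replicate 2 held 27281 peaks of 256 bp. Of these, 23 peaks in replicate 1 and 43 peaks in replicate 2 were assigned to the listed genes, which are 31 of the 20037 protein-coding genes in the reference table. Each peak carries a score, a scaled number of reads, that was compared only within its own list, as a percentile (the share of peaks in that list with the same or a lower score). Scores moved in steps of 0.189 in replicate 1 and 0.149 in replicate 2. If HOMER's default scaling to 10000000 tags applied, which the files do not state, these steps stand for 1 tag, where a tag is a mapped read, the weakest peaks for 16 and 21 tags, and the median peaks for 31 and 49 tags.

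Cells sense their sterol supply in the membrane of the endoplasmic reticulum. SCAP escorts the SREBP precursors, encoded by SREBF1 and SREBF2, to the Golgi for cleavage, and the INSIG proteins hold this complex back when sterols are plentiful. Released SREBPs then switch on the mevalonate and sterol enzymes and the fatty acid enzymes through sterol regulatory elements in their promoters. Forkhead factors such as FOXK2 recognise the letters TGTTTAC.

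The sequences below are the bases shared by overlapping peaks of both replicates, or a stretch of them, and were chosen because they hold the forkhead or the sterol letters at the genes the results turn on. All are the plus strand of hg38, 5′ to 3′. Capitals mark TGTTTAC or the shorter TGTTTA, which lies inside TGTTTAC, or their reverse complements, in the first 7 sequences, and in the last pair the letters TCACNCCAC, a form of the sterol regulatory element, or their reverse complement. The INSIG2 stretch at chr2:118113088-118113277 is intergenic, the CPT1A stretch at chr11:68857622-68857832 is intergenic and upstream, and the HMGCS1 stretches at chr5:43314756-43314962 and chr5:43301910-43302120 are upstream and intronic. The ACSL3 stretch at chr2:222903803-222904013 is intronic, the ELOVL5 stretch at chr6:53410719-53410881 is intergenic, and the IDI1 stretch at chr10:1050709-1050919 is annotated as an intron of IDI1. The SREBF2 stretch at chr22:41832925-41833104 ends before the RefSeq start of the gene, and the FASN stretch at chr17:82098363-82098391 is a short piece around the element in the promoter peak.
INSIG2 downstream: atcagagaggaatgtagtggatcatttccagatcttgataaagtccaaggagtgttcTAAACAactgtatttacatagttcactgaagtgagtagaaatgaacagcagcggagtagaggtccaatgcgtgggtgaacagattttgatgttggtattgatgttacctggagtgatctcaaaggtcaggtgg
CPT1A upstream: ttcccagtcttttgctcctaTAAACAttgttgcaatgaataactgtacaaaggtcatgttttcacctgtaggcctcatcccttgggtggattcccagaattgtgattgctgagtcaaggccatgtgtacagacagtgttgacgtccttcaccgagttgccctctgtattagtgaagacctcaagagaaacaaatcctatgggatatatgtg
HMGCS1 upstream: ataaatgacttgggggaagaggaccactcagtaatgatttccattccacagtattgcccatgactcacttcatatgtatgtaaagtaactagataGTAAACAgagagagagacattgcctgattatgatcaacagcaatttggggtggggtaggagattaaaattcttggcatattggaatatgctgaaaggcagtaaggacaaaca
HMGCS1 intron: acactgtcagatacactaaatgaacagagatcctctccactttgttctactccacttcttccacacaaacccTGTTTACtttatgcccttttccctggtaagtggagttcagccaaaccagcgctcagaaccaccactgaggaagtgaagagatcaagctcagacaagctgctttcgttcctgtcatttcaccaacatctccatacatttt
ACSL3 intron: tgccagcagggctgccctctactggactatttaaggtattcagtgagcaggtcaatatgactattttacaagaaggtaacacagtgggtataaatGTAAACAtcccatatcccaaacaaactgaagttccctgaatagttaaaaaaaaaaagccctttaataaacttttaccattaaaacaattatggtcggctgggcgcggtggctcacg
ELOVL5 upstream: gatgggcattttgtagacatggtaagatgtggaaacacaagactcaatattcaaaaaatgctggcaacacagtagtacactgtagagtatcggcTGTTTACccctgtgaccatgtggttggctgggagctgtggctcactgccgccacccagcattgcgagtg
IDI1 intron: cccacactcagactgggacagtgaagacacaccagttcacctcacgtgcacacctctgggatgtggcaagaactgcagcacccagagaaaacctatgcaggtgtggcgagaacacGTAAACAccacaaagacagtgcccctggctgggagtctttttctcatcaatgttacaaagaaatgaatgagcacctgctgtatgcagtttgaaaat
SREBF2 promoter: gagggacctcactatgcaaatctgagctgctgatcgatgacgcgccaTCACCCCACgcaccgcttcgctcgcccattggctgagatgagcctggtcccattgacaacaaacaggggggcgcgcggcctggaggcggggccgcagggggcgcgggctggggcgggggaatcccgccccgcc
FASN promoter: gccgccgccgGTGGGGTGAtgctcgtgcg

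FOXK2 peaks were assigned to most of the listed genes, and 12 of them had a peak at the same place in both replicates. These were SREBF2, INSIG1 and INSIG2 among the regulators, HMGCS1 and IDI1 in the mevalonate steps, and FDFT1 and SQLE in the sterol steps. In the fatty acid arm they were FASN, ELOVL5, ELOVL6, ACSL3 and CPT1A. In replicate 1, 16 of 31 genes had a peak (51.6%), where 31.3% of all protein-coding genes did. In replicate 2 it was 23 genes (74.2%), beside 51.7% of all genes. A peak in both lists was found for 15 genes (48.4%, beside 28.6%), and a peak in either list for 24 genes (77.4%, beside 54.4%). Peaks that overlapped between the lists by at least 1 bp were found for 12 genes (38.7%, beside 25.5%), and a peak of the deposited promoter class in both lists for 7 genes (22.6%, beside 9.31%). The 7 include IDI1, whose replicate 1 peak of that class is at the promoter of the neighbouring gene WDR37, and PMVK, whose promoter peaks did not overlap. With promoters taken from GENCODE starts the count was 6, with no share of all genes counted beside it. Every share was thus higher in the list than among all protein-coding genes, which were counted whether or not OVCAR5 expresses them, since expression was not analysed here. The genes were of ordinary length, with a median of 24854 bp against 24115 bp for all protein-coding genes. Assignment to the nearest TSS depends on the spacing of starts, which gene length does not measure and which was not analysed here. Overlapping peaks were still found for 12 genes when the overlap had to cover 50% of the shorter peak or the centres had to lie within 100 bp. Limits on score and on shorter distances lowered the counts. In the higher-scoring part of each list, at or above its median score, 10 genes had a peak in both lists (32.3%, beside 17.7%) and 6 had an overlapping peak (19.4%, beside 17.1%). With peaks within 10000 bp of a TSS 8 genes had a peak in both lists (25.8%, beside 16.9%). With a single condition no test between conditions exists, and these shares are descriptions.

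**Figure D1:**
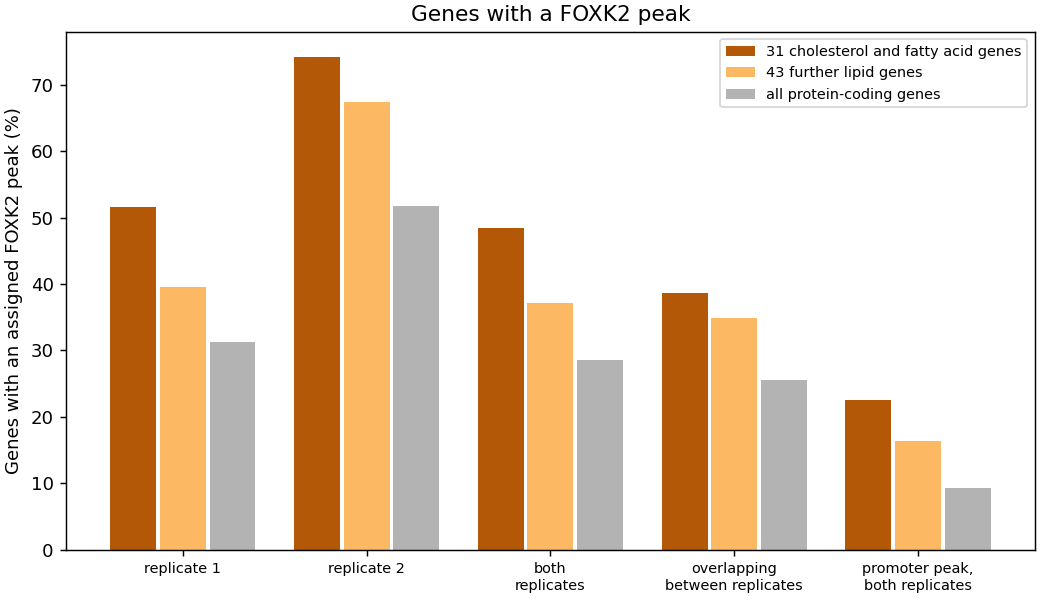
Bars show the percent of genes with an assigned FOXK2 peak (vertical axis) in replicate 1, in replicate 2, in both, overlapping between them, or at a promoter in both, for the 31 listed genes, 43 further lipid genes and all 20037 protein-coding genes. The listed genes stood highest in each group of bars, from 51.6% against 31.3% of all genes in replicate 1 to 22.6% against 9.31% for promoter peaks in both.

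By role, all 5 genes of SREBP control had a peak in replicate 2 and 4 had one in replicate 1, and 3 of the 5 had overlapping peaks. Among all protein-coding genes these shares were 51.7%, 31.3% and 25.5%. Each role holds few genes, so the counts by role are descriptions only. Overlapping peaks were found for 2 of 6 mevalonate genes, 2 of 7 sterol genes and 1 of 4 fatty acid synthesis genes, beside 25.5% of all protein-coding genes. They were also found for 2 of 5 elongation and desaturation genes and 2 of 4 genes of activation, oxidation and release. Of the other 19 genes, 3 had peaks at different places in the lists (SCAP, PMVK and ACACA), 1 had a peak in replicate 1 only (MVD), and 8 in replicate 2 only (SREBF1, MVK, LSS, CYP51A1, DHCR7, SCD, FADS1 and PNPLA2). No peak in either list was assigned to FDPS, MSMO1, SC5D, ACLY, ACACB, FADS2 or ACSL1. Of all protein-coding genes, 54.4% had a peak in either list, beside 77.4% of the listed genes. In both lists it was 28.6% of all genes, with 25.5% overlapping, 31.3% in replicate 1 and 51.7% in replicate 2. A peak in replicate 2 alone was thus common among all genes, and a peak in replicate 1 alone was rare.

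**Figure D2:**
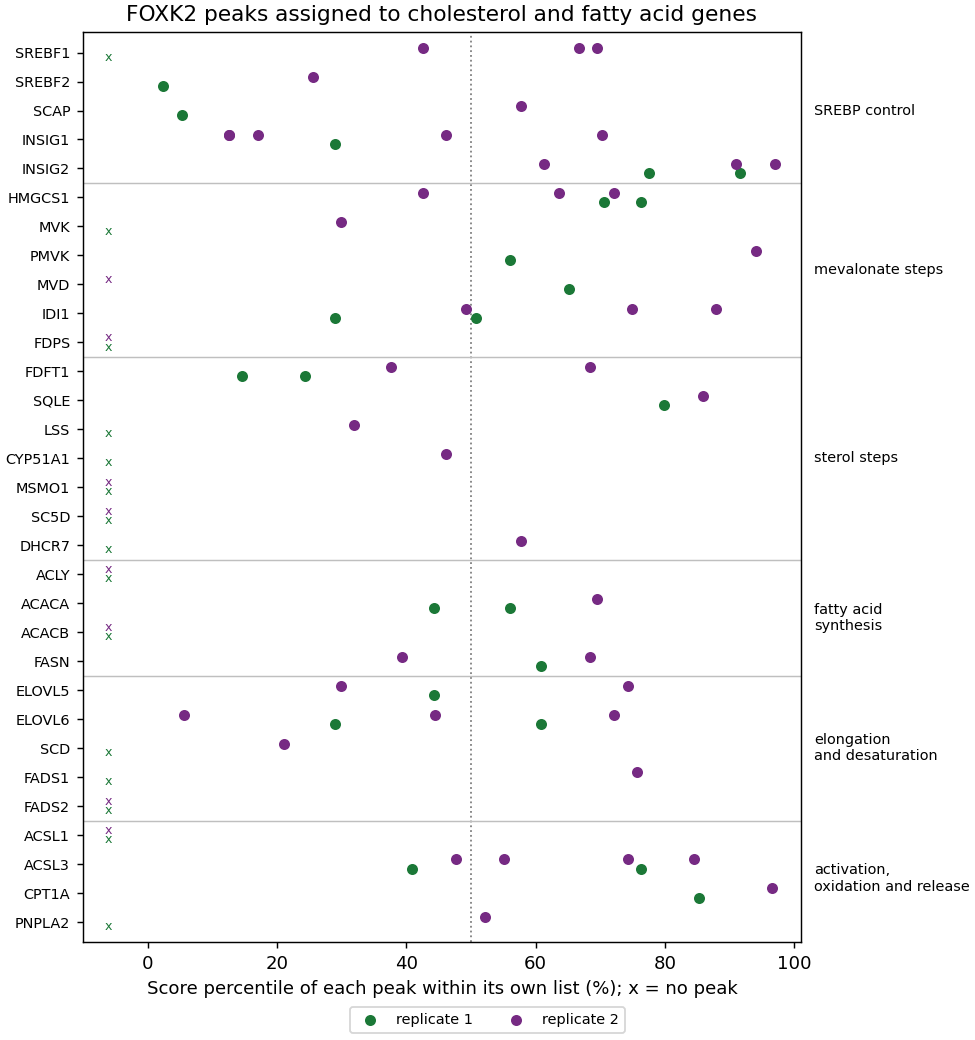
Each point is a FOXK2 peak assigned to a listed gene (rows, grouped by role), placed by its score percentile within its own list (horizontal axis, %), in green for replicate 1 and purple for replicate 2, with x for a gene without a peak and a dotted line at 50%. INSIG2, CPT1A and PMVK reached 94.0% or more in replicate 2, and SREBF2 lay at 2.36% in replicate 1.

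INSIG2, which retains SCAP in the endoplasmic reticulum, had the strongest peaks of the list. Its downstream peak, at chr2:118113067-118113277 in replicate 1, scored 12.3 there (percentile 91.6%, rank 1046) and 25.7 in replicate 2 (97.0%, rank 812). It lay at +24622 and +24666 bp from the TSS, where positive distances run downstream, and 2070 bp beyond the RefSeq end of the gene. The scores stand for 65 tags (exact Poisson 95% interval 50.2 to 82.8) and 173 tags (148.2 to 200.8), intervals that rest on the assumed scaling and cover counting error only. This is the stretch that carries TGTTTA, 24 bp from the centre of the replicate 1 peak. The INSIG2 promoter also had a peak in both lists, at -120 and -57 bp, with scores of 8.49 (77.5%) and 17.0 (91.0%). A further INSIG2 peak at -26754 bp was found in replicate 2 (8.48, 61.3%).

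INSIG1, the close relative that is itself an SREBP target, had no promoter peak in either list. A distal peak at chr7:155230327-155230537 in replicate 1, -67340 bp from the TSS, overlapped between the lists with scores of 4.72 (29.0%) and 6.84 (46.1%), which is below the median of each list. The strongest INSIG1 peak was in replicate 2 only, in intron 2 of 3 at +1270 bp (9.82, 70.3%). The remaining 3 INSIG1 peaks of replicate 2 lay at -92094, -62706 and -39373 bp, with scores from 4.31 to 4.61 and percentiles from 12.6% to 17.1%.

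SREBF2, which encodes the SREBP that mainly drives sterol genes, had a promoter peak in both lists and almost at the same bases, with centres 4 bp apart. The peaks lay at -49 and -53 bp and were weak, with scores of 3.58 (2.36%) and 5.21 (25.6%). They stand for 19 tags (exact Poisson 95% interval 11.4 to 29.7) and 35 tags (24.4 to 48.7). SREBF1, which encodes the SREBPs more tied to fatty acid genes, had no peak in replicate 1. In replicate 2 it had 3, at -12320 bp inside an intron of TOM1L2 (9.67, 69.4%), at -3364 bp (9.22, 66.7%) and in intron 3 of 19 at +3752 bp (6.54, 42.6%). SCAP had a weak peak in its 5′ UTR at +118 bp in replicate 1 (3.77, 5.38%) and another in intron 1 at +19940 bp in replicate 2 (8.03, 57.7%), 19588 bp apart.

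In the mevalonate steps, HMGCS1, the synthase that makes HMG-CoA, had 2 peaks that overlapped between the lists, each holding TGTTTAC. The upstream peak at -1349 and -1322 bp scored 8.3 (76.3%) and 10.1 (72.1%), with the heptamer 7 bp from the replicate 1 centre. The peak in intron 1 of 8 at +11209 and +11224 bp scored 7.55 (70.6%) and 8.77 (63.6%), with the heptamer 30 bp from the centre. HMGCS1 was the only listed gene with 2 overlapping peaks that both held TGTTTAC in their shared bases. A further peak in intron 7 at +18797 bp was found in replicate 2 (6.54, 42.6%) and held no TGTTTAC.

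IDI1, the isopentenyl diphosphate isomerase, had 2 overlapping peaks and a strong peak in replicate 2 alone. The intronic peak at -1448 and -1450 bp, whose centres lay 2 bp apart, scored 4.72 (29.0%) and 10.7 (74.9%), and the heptamer lay 13 bp from the replicate 1 centre. The other pair, at +345 and +466 bp of its assigned start, scored 5.85 (50.7%) and 7.14 (49.3%), and its promoter class refers to a transcript of the neighbouring gene WDR37. The IDI1 promoter itself, at -177 bp, had a peak in replicate 2 (14.9, 87.8%, 100 tags) and none in replicate 1. Among 500 replicate 2 peaks of similar rank, 73.6% had a partner in replicate 1.

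PMVK, the phosphomevalonate kinase, had promoter peaks in both lists that did not overlap. The replicate 1 peak at chr1:154937037-154937247 scored 6.23 (56.1%), at -134 bp. The replicate 2 peak at chr1:154936670-154936926 scored 19.6 (94.0%, rank 1643, 132 tags), at -165 bp of another annotated start, and a gap of 110 bp separated the peaks. In replicate 2, 87.6% of 500 peaks of similar rank had a partner in replicate 1. MVD, the decarboxylase of the next step, had a peak at -20 bp in replicate 1 alone (6.98, 65.1%), annotated to the promoter of SNAI3-AS1. Mevalonate kinase, MVK, had a peak only in replicate 2, at its 3′ end, +24303 bp (5.5, 29.9%).

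In the sterol steps, FDFT1 and SQLE, which encode squalene synthase and squalene epoxidase, had promoter peaks that overlapped between the lists. SQLE was the stronger, with 8.87 (79.9%) at -16 bp and 14.0 (85.8%) at -112 bp. The FDFT1 promoter scored 4.15 (14.6%) at -189 bp and 9.52 (68.4%) at -161 bp. FDFT1 also had a peak in intron 3 of 7, at +11407 and +11372 bp, with scores of 4.53 (24.4%) and 6.1 (37.6%), and this intronic peak held TGTTTAC while both promoter peaks lacked it. Of the later enzymes, 3 had a peak in replicate 2 only. DHCR7, the last reductase of cholesterol synthesis, had one at -324 bp (8.03, 57.7%), and CYP51A1, the lanosterol demethylase, at +609 bp (6.84, 46.1%), annotated to the promoter of CYP51A1-AS1. LSS, lanosterol synthase, had a peak in intron 2 at +697 bp (5.65, 31.9%) that held TGTTTAC.

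In fatty acid synthesis, FASN, the fatty acid synthase, had a promoter peak in both lists, at -135 and -126 bp with centres 9 bp apart. It scored 6.6 (60.8%) and 9.52 (68.4%). A replicate 2 peak at -8310 bp lay in an intron of CCDC57 (6.25, 39.4%). ACACA, the acetyl-CoA carboxylase that makes malonyl-CoA for synthesis, had a promoter peak in replicate 1 only, at -70 bp (6.23, 56.1%). Its other replicate 1 peak lay at +14624 bp in the 3′ UTR of C17orf78 (5.47, 44.2%), and its replicate 2 peak in intron 2 at +19338 bp (9.67, 69.4%) held TGTTTAC. The nearest ACACA peaks of the lists were 19174 bp apart, so no ACACA position was shared.

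The elongases had peaks far from their starts. ELOVL5, an elongase of polyunsaturated fatty acids, had an intergenic peak at -61645 and -61574 bp in both lists, with scores of 5.47 (44.2%) and 10.6 (74.3%) and TGTTTAC 8 bp from the replicate 1 centre. ELOVL6, which elongates saturated and monounsaturated fatty acids, had a peak in intron 2 of 3 at +113227 and +113185 bp, with scores of 4.72 (29.0%) and 6.69 (44.4%). Its stronger peaks were each in a single list, at -12784 bp in replicate 1 (6.6, 60.8%) and in intron 1 at +91470 bp in replicate 2 (10.1, 72.1%). Of the desaturases, FADS1 and SCD had peaks close to their starts, in replicate 2 only. FADS1 had one in exon 1 at +128 bp (10.9, 75.6%), and SCD, stearoyl-CoA desaturase, had one at +86 bp (4.91, 21.1%). Weaker replicate 2 peaks lay at -88515 bp of ELOVL5 (5.5, 29.9%) and -9928 bp of ELOVL6 (3.87, 5.64%).

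CPT1A, which admits fatty acids to mitochondria for oxidation, had the second strongest shared position of the list and no promoter peak. Its peak at chr11:68857622-68857832 in replicate 1, -15796 bp from the TSS, scored 10.0 (85.3%, rank 1839) and 23.9 in replicate 2 (96.5%, rank 966). The shared stretch holds TGTTTA 82 bp from the replicate 1 centre and a match to TGANTCA, the AP-1 site. The shared bases of the upstream HMGCS1 pair hold such a match too. ACSL3, an acyl-CoA synthetase of the endoplasmic reticulum and lipid droplets, had 2 overlapping intronic peaks. The peak at +42974 and +42962 bp scored 8.3 (76.3%) and 10.6 (74.3%) and held TGTTTAC 7 bp from the replicate 1 centre, and the peak at +17529 and +17533 bp scored 5.28 (40.9%) and 13.4 (84.4%) and lacked it. Distal ACSL3 peaks at -23100 bp (7.73, 55.1%) and -83334 bp (6.99, 47.7%) were in replicate 2 only. PNPLA2, the triglyceride lipase, had a replicate 2 peak in intron 2 at +1231 bp (7.44, 52.1%).

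**Figure D3:**
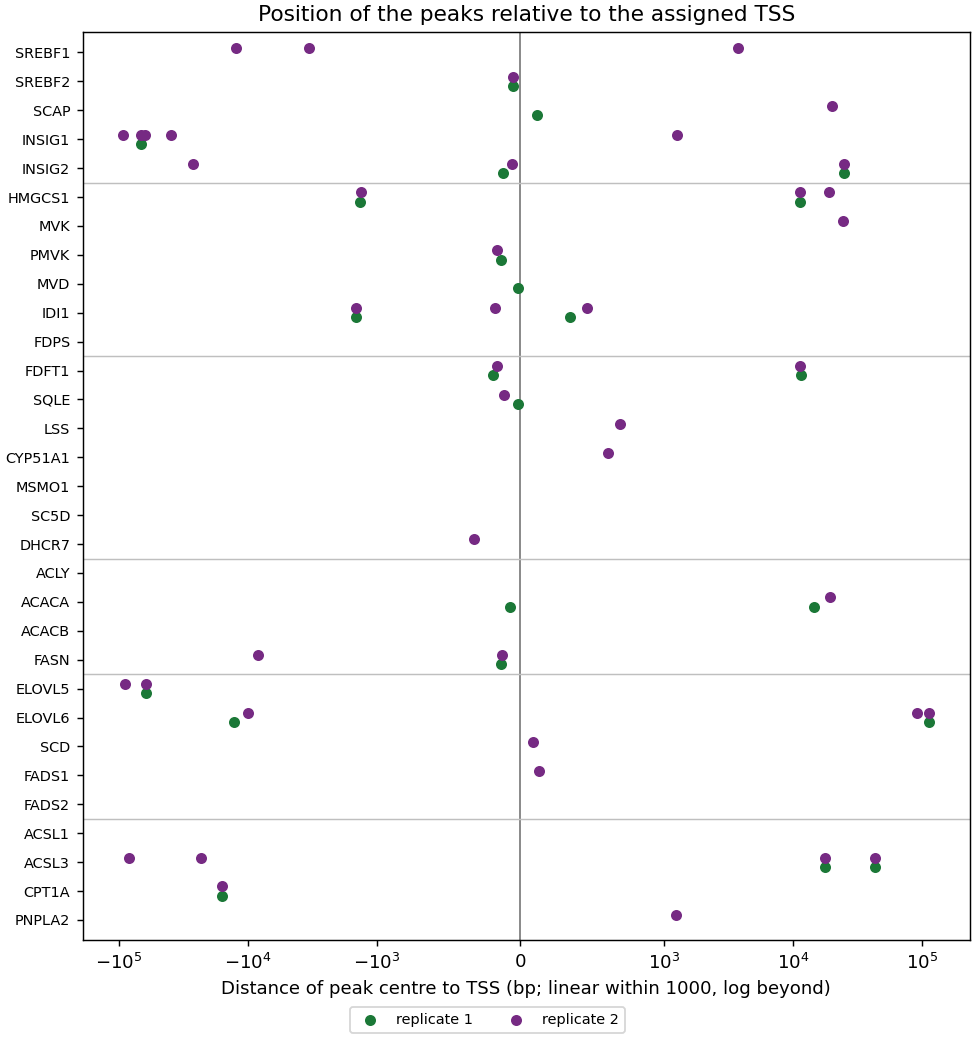
Each point is a peak of a listed gene (rows, grouped by role), placed by the distance of its centre from the assigned TSS (horizontal axis, bp, linear within 1000 bp and logarithmic beyond, negative upstream), in green for replicate 1 and purple for replicate 2. FASN has peaks of both replicates near the TSS, at -135 and -126 bp, as do SREBF2, INSIG2, PMVK, FDFT1 and SQLE, and the overlapping peaks of ELOVL6 lie at +113227 and +113185 bp.

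Over the 12 genes, 17 pairs of peaks overlapped between the lists, with centres 2 to 121 bp apart and a median of 27 bp. Their scores ranked alike in the lists, with Spearman's rho of 0.762 over the 17 pairs, beside 0.852 over all 9343 pairs, a description over positions that share 2 libraries and in part a gene. The percentile was higher in replicate 2 for 13 of 17 pairs (76.5%), as it was for 88.8% of all pairs. The lists differ in length, which moves percentiles. When the longer list was limited to as many of its strongest peaks as the shorter list holds, the median percentile of each gene's strongest replicate 2 peak went from 69.4% to 38.9%, and in replicate 1 it was 58.4% with either length.

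**Figure D4:**
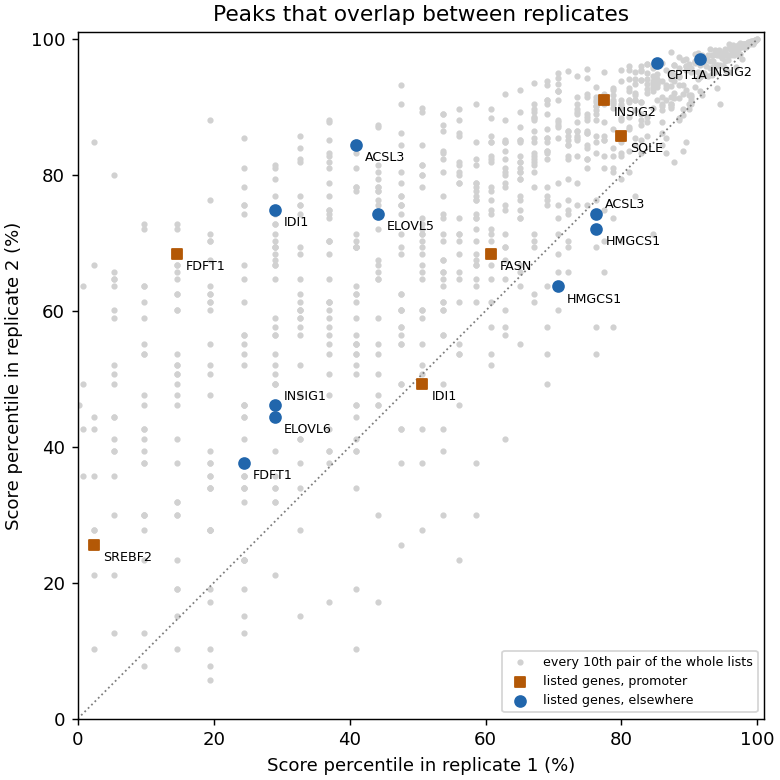
Each coloured mark is a pair of overlapping peaks of a listed gene, placed by its score percentile in replicate 1 (horizontal axis, %) and in replicate 2 (vertical axis, %), with orange squares at promoters, blue circles elsewhere, every 10th pair of the whole lists in grey and a dotted line of equality. INSIG2 (91.6% and 97.0%) and CPT1A (85.3% and 96.5%) lie at the upper right, SREBF2 (2.36% and 25.6%) at the lower left, and 13 of 17 pairs above the line (76.5%, beside 88.8% of all pairs).

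The peaks of the listed genes were of ordinary strength and lay nearer to the TSS than the peaks of the whole lists. Their median score was 6.23 in replicate 1 (range 3.58 to 12.3), beside 5.85 for all peaks, and 8.03 in replicate 2 (3.87 to 25.7), beside 7.29. The highest-scoring 10% of each list held 1 of the 23 and 4 of the 43 peaks. In replicate 1, 17 of 23 peaks overlapped a replicate 2 peak (73.9%, beside 74.9% of all peaks). In replicate 2, 17 of 43 overlapped a replicate 1 peak (39.5%, beside 34.2%). Lists of equal length reversed this replicate 2 contrast, with the share of the listed genes' peaks below that of all peaks (7480 of 12471). The higher replicate 2 share thus depended on list length. The median distance to the TSS was 1448 bp in replicate 1, beside 16139.5 bp for all peaks, and 11224 bp in replicate 2, beside 20161 bp. In replicate 1 the distances of the listed genes' peaks fell into a near and a far group, so its median exaggerates the contrast. Replicate 2 distances showed no such gap. More than 10000 bp from the TSS lay 11 of 23 peaks in replicate 1 (47.8%, beside 57.1%) and 22 of 43 in replicate 2 (51.2%, beside 62.1%). Promoters held 9 of 23 peaks (39.1%, beside 21.7%) and 11 of 43 peaks (25.6%, beside 18.0%), introns 26.1% (beside 39.0%) and 37.2% (beside 40.6%), and intergenic regions 26.1% (beside 34.1%) and 32.6% (beside 36.5%). GC content had a median of 52.6% beside 47.4% in replicate 1 and 48.6% beside 45.9% in replicate 2. The focus ratio, the fraction of tags on the expected side of the peak centre, was 0.771 beside 0.758 and 0.753 beside 0.755, so peak shape was close to that of the whole lists.

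The forkhead letters were present at the genes' distal and intronic peaks more than at their promoters, as in the whole lists. Letters were searched on both strands inside each peak. TGTTTAC was in 6 of 23 replicate 1 peaks (26.1%, beside 30.8% of all peaks of that length) and in 10 of 43 replicate 2 peaks (23.3%, beside 29.2%), and TGTTTA in 34.8% (beside 45.3%) and 34.9% (beside 46.2%). None of the 9 promoter peaks of replicate 1 held TGTTTAC, beside 14.4% of all promoter peaks, and 6 of the 14 others did, beside 35.4%. In replicate 2 it was 1 of 11 promoter peaks, beside 11.3%, and 9 of 32 others, beside 33.1%. Among the 17 overlapping pairs, the shared bases held it in 0 of 6 promoter pairs and 6 of 11 others, at HMGCS1 (both pairs), IDI1, FDFT1, ELOVL5 and ACSL3. The shared bases of all overlapping pairs were not counted, so these pair counts have no share of the whole lists beside them. The 2 strongest positions, at INSIG2 and CPT1A, held the shorter TGTTTA.

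The sterol letters TCACNCCAC were in 2 of 23 replicate 1 peaks (8.7%, beside 0.858% of all peaks of that length), at the promoters of SREBF2 and FASN, genes whose promoters are known to hold a sterol regulatory element. In replicate 2 they were in 3 of 43 peaks (6.98%, beside 1.1%), at the same promoters and in the INSIG1 peak at -92094 bp. CCAAT, the letters bound by NF-Y, an SREBP partner at many sterol genes, was in 39.1% of the genes' replicate 1 peaks (beside 26.1%) and 39.5% of their replicate 2 peaks (beside 29.8%). TGANTCA, the AP-1 letters, which can share bases with TCACNCCAC, was in 3 of 23 peaks (13.0%, beside 21.5%) and 6 of 43 peaks (14.0%, beside 24.4%). Unlike TGTTTAC, these 3 sets of letters were not counted by peak class. The genes' peaks were more often promoters (39.1% beside 21.7% and 25.6% beside 18.0%), and the part of class in these contrasts was not tested. RefSeq (GRCh38.p14) promoters, from 250 bp before to 50 bp after the start, were analysed for 28 of the 31 genes, and those of FDFT1, SQLE and FASN were not analysed here, so the FASN element above is not in these counts. In the 28, TGTTTAC was in 1 promoter (ELOVL6; 3.57%, beside 2.61% of all 15843 promoters), TGTTTA in 2 (7.14%, beside 8.95%) and TGANTCA in 1 (ELOVL5; 3.57%, beside 5.75%). TCACNCCAC was in 2 of the 28 promoters (PNPLA2 and SREBF2; 7.14%, beside 1.17%) and CCAAT in 14, beside 36.4% of all promoters. A match of letters is not a bound site.

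The assignment to the nearest TSS left some peaks near listed genes under other names. When a gene owned every peak inside its GENCODE body or within 10000 bp of its start, 3 peaks in replicate 1 and 9 in replicate 2 that carried the name of a gene outside the list fell to listed genes. By this rule 14 genes had a peak in both lists (45.2%, beside 33.3% of 19962 GENCODE protein-coding genes) in place of 15. This assignment left out the distal peaks, so INSIG1 kept a peak in replicate 2 only and CPT1A, the second strongest shared position, had none. ELOVL5 kept none of its assigned peaks and gained 2 others in replicate 2, assigned to MIR5685 and RPS16P5, while PNPLA2 and FADS2 gained a peak in both lists. Of the 7 genes without an assigned peak, ACLY, which makes cytosolic acetyl-CoA from citrate, had a replicate 1 peak 399 bp inside its start, assigned to the promoter of TTC25 (4.53, 24.4%). FADS2, a desaturase, had a replicate 1 peak assigned to MIR611 (6.79, 62.9%), at -856 bp from the start of its longest GENCODE model. That model begins far upstream of the RefSeq start, so the FADS2 peak in both lists depends on it. In replicate 2 FADS2 had a peak in its body assigned to MIR6746 (8.18, 58.9%) besides the FADS1 exon peak, which also lies within the longest FADS2 model. The PNPLA2 peaks at the RPLP2 promoter, upstream of its start (7.17, 67.1% and 10.9, 75.6%), shared only 3 bp. FDPS, MSMO1, SC5D, ACACB and ACSL1 had no peak by either assignment.

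A further list of 43 lipid genes, taken from textbook roles in sterol transport, elongation, activation, oxidation and triglyceride storage, was counted in the same way, with no test between the lists. It was chosen with earlier results of these data known, so its shares are not an independent repeat. A peak in both lists was found for 16 of them (37.2%, beside 28.6% of all genes), an overlapping peak for 15 (34.9%, beside 25.5%) and a promoter peak in both lists for 7 (16.3%, beside 9.31%). In the higher-scoring part of each list, 9 of the 43 had a peak in both, beside 17.7% of all genes. MBTPS1, the protease that makes the first cut in SREBPs in the Golgi, had the strongest peak of either list of lipid genes, at +145 and +136 bp, with scores of 29.8 (99.3%) and 59.0 (99.7%, rank 93). LPIN2, a phosphatidate phosphatase, followed at -25650 and -25660 bp with 27.0 (99.0%) and 52.5 (99.5%). LBR, a sterol reductase of the nuclear envelope, had 14.3 (94.5%) and 22.5 (95.8%), and MYLIP, a ligase that marks lipoprotein receptors for degradation, had 10.4 (86.5%) and 20.4 (94.6%), both far upstream. NR1H2, a liver X receptor, and LPIN1, another phosphatidate phosphatase, had peaks within 50 bp of their starts, with 10.0 (85.3%) and 19.2 (93.6%) for NR1H2 and 9.05 (81.1%) and 18.4 (92.8%) for LPIN1. A peak in either list was assigned to 30 of the 43 genes (69.8%, beside 54.4% of all genes). No peak in either list was assigned to the other 13, namely ACAT2, NSDHL, HSD17B7, EBP, NPC2, TECR, ACSS2, ACSL4, CPT1B, SLC25A20, ACADVL, DGAT2 and PLIN2.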

How the data were processed

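FOXK2 ChIP-seq reads of OVCAR5 were, per the study's methods, mapped by the authors to hg38 with Bowtie2 2.2.6, and peaks were identified with HOMER 4.10. Per the file headers, each of the 2 replicates has its own HOMER peak file, annotated with annotatePeaks.pl. The deposited lists give each peak a HOMER score, a focus ratio (a fraction computed by the authors' software), a class, the nearest TSS and its gene. The study also set peaks against input in its statistics. Whether input served as background for the deposited lists is not given in the sources used here. The lists were used as deposited, with coordinates taken as 1-based. Scores were ranked within a list, and the step between scores was read as 1 tag, which assumes HOMER's default scaling, with 100% of scores under 10 within 0.006 of a whole multiple.

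Genes were matched by the deposited gene name, and all 31 listed and 43 further genes were found in the RefSeq table (GRCh38.p14). Overlap needed 1 bp. Motifs were read from hg38, and transcript starts and gene bodies from GENCODE release 44. The text names all 31 genes and, of the further genes, at most 6 with the best mean percentile among overlapping peaks and those without a peak. The gene lists were chosen with earlier results of these data known. No test was made, since the data hold a single condition and no input was analysed here. The alternatives were limits on distance, stricter overlap, the higher-scoring part of each list, equal list lengths, other promoter definitions, assignment by GENCODE locus, other motif windows and leaving out a replicate. Simulated data with known answers were used to check the counting of overlaps and motifs. Python 3.11.15, pysam 0.24.0, pandas 2.3.3, numpy 2.4.6, matplotlib 3.10.9 and scipy 1.17.1 were used.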

Additional observations from a re-analysis of the deposited data

How the results depend on the processing

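Of 34 alternative values, 6 moved. A move meant over 1.5 times for a count, beyond the 95% binomial interval for a share or beyond 1 SD for a median percentile. That SD was taken over the medians of the 2 replicates and is not a spread over genes. The 15 genes with a peak in both lists became 8 with peaks within 10000 bp of the TSS, and leaving out a replicate gave 16 to 23 genes with a peak in the remaining list. The 12 genes with overlapping peaks became 6 in the higher-scoring part of each list. The 16 further lipid genes with a peak in both became 9 of 43 there, beside 17.7% of all protein-coding genes. With lists of equal length, 52.2% of the replicate 1 peaks of the listed genes overlapped a replicate 2 peak, in place of 73.9%, as did 7481 of all 12471 replicate 1 peaks, in place of 9343, and the median percentile of each gene's strongest replicate 2 peak was 38.9%, in place of 69.4%. The 7 genes with a promoter peak in both lists became 5 to 8 under the alternatives that keep both lists, while counting a single list gave 9 genes in replicate 1 and 10 in replicate 2. Shares of few peaks have wide intervals, and within theirs the promoter share of replicate 2 peaks went from 25.6% to 39.5% with peaks within 2000 bp of the TSS, and the heptamer share from 23.3% to 34.9% with TGTTTA. Peaks near the weakest score, 16 or 21 tags, set the depth limit: a gene without a peak may still hold binding below it.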
